A study of Mus musculus with 4 samples.

Results

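A set of 10 genes of autophagy initiation and cargo capture was followed in WTSS-seq libraries of mouse skeletal muscle, namely Ulk1, Ulk2, Rb1cc1, Atg13, Atg4b, Becn1, Map1lc3a, Map1lc3b, Gabarapl1 and Sqstm1. They were taken by symbol from the table of alternative start sites (ASSs), and 9 of the 10 genes had at least 1 site. Together they held 35 of the 42207 ASSs in the table and 1632 of its 8072587 reads, in a table that covered 9838 genes. Map1lc3a had no row and counts as not detected. The lowest total of any listed site over the 4 libraries was 10 reads, so a weaker Map1lc3a site could not have appeared.

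The gastrocnemius muscle of adult male mice was sampled from AMPKα2 knockout animals on the C57BL/6 strain, about 8 weeks old (KO, n = 2 libraries), and from their wild-type controls (WT, n = 2 libraries), with 1 animal per library. The KO mice lack part of the catalytic domain of AMPKα2, encoded by Prkaa2, in all tissues, so the loss is not limited to muscle fibres. WTSS-seq removes ribosomal RNA, copies the rest by template switching and PCR, and sequences from the 5′ end, so each read gives the first base of an RNA molecule, whole or broken. The smallest p of an exact permutation test over 2 and 2 libraries is 0.333, so the comparisons rest on models fitted across all sites or genes.

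Autophagy delivers cytoplasmic material to the lysosome inside a double membrane, the autophagosome. The ULK complex starts it: the kinases ULK1 and ULK2 act with ATG13 and with FIP200, the scaffold encoded by Rb1cc1, and AMPK is known to phosphorylate ULK1 when energy is low. The lipid kinase complex that holds Beclin 1 (Becn1) then marks the membrane, ATG4 proteases such as ATG4B process the ubiquitin-like ATG8 proteins (LC3A, LC3B and GABARAPL1) for attachment to it, and p62 (Sqstm1) binds ubiquitinated cargo to LC3. In skeletal muscle this route clears damaged organelles and is induced by fasting and exercise.

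Of the 9 detected genes, Sqstm1 alone had reads at its annotated start, and its promoter is shown for that reason. The sequence was taken from RefSeq (GRCm38.p6) and lies at chr11:50210791-50211070 on the minus strand. It is written 5′ to 3′ and ends with 30 bases of the gene. Capitals mark first the letters TATAAA and then 20 of the 22 bases of the start site. For comparison, the 40 bases around the annotated start of Gabarapl1 (chr6:129533162-129533201, plus strand) are given, of which 10 belong to the gene and which hold no capitals because TATAAA was not found in them.
Sqstm1: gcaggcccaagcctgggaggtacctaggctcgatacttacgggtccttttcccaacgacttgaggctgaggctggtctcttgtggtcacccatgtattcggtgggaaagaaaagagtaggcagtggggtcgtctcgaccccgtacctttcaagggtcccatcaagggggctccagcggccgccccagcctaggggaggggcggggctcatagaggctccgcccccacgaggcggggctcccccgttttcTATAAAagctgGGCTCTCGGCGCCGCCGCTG
Gabarapl1: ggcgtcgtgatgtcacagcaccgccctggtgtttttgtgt
The Sqstm1 site spans 50210789 to 50210810, its most used position is 50210795, and the annotated first base is 50210820. Reads thus began 25 bp into the annotated gene and 26 bp downstream of the first T of TATAAA. RefSeq promoters of 300 bases, 250 before and 50 after the start, were given for 7 of the members. TATAAA, searched on both strands, was in 1 of these 7 (Sqstm1) and in 13.6% of all 32851 promoters. CACGTG, the E-box core bound by the lysosomal regulator TFEB, was in 0 of 7 and in 7.15% of all promoters, and TGTTTAC, a forkhead motif, was in 0 of 7 and in 3.65%. These are matches of letters within the windows and not binding sites.

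The WT libraries held 1300069 and 1568945 reads, fewer than the 2900279 and 2303294 reads of KO. A floor of 3 counts, used only as the lowest level against which a fold is given, was 1.03 to 1.30 ppm of the reads for KO and 1.91 to 2.31 ppm for WT. No molecular identifiers were described, so the floors cover counting error only. The sum over the 19 sites of Prkaa2, the targeted gene, did not separate the groups (DESeq2 log2 fold change -0.03 with SE 0.50, adjusted p 0.994) and so gave no check of the labels. All 10 muscle fibre markers were present, at 33838 to 44457 ppm in sum. Of the lists of other cell types, those for T cells, macrophages, fibroblasts and blood did not overlap between the groups. Those for adipocytes, endothelium and Schwann cells overlapped. These splits are by ppm. As summed normalized counts the endothelial list did not overlap, at 282 and 248 in KO against 231 and 233 in WT. The other lists split alike on both scales. By normalized counts of single genes, 21.7% of all genes with a site lay above and 17.6% below without overlap. Such a split is therefore common. The T cell list was the furthest apart and alone held a gene with a DESeq2 adjusted p under 0.1. Only Cd3e and Skap1 of its 6 genes had sites, at 4.48 and 1.30 ppm in sum in KO against 116 and 70.7 ppm in WT, while Cd3d, Cd4, Cd8a and Trbc2 were not listed. The macrophage list (4 of 5 genes with sites, Cd68 not listed) stood at 126 and 107 ppm in KO against 191 and 168 ppm in WT, and the fibroblast list (6 of 6) at 1463 and 1059 ppm against 1738 and 1582 ppm. The blood list (2 of 5) was higher in KO, at 15.9 and 12.2 ppm against 11.5 and 8.29 ppm. In bulk tissue, fewer cells of a type and less RNA per cell cannot be told apart.

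Of the 35 sites, 20 had the class code i (inside an intron) and 15 the code c (contained in an annotated transcript). Intronic sites made up 57.1% of the sites, close to the 52.0% of the 40426 ASSs with a gene in the whole table. They held 75.2% of the reads of the members, against 20.4% of the reads of all genes. The share over all genes gives most weight to the genes with the most reads. Genes with as few reads as the members were not compared, so the gap is not read as a trait of the members. The members differed in their intronic share of reads. All reads of Ulk1, Atg13 and Atg4b were intronic, as were 93.9% of those of Rb1cc1, 87.2% of Gabarapl1 and 84.6% of Ulk2. Becn1 and Sqstm1 were the reverse, with 88.2% and 68.3% of their reads in contained sites, and the single site of Map1lc3b was contained. Of the 29956 sites in the table with an annotated promoter start, 6.28% lay within 1 kb of such a start. The member sites were placed from the 5′ end of the gene instead, also in Rb1cc1 and Becn1, for which no promoter was given. The share of the members is therefore not compared with that of the table. Only 1 member site, that of Sqstm1 described above, lay within 1 kb of the gene's start, which is 2.86% of the member sites. The summed counts given below are therefore mostly counts of 5′ ends away from the annotated starts.

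Counts were set side by side between genes per kilobase of gene span, introns included, because exon lengths were not used here. The scale is the summed normalized count per kb. It is a density of 5′ ends and not a level of RNA, and a short span raises it. Gabarapl1 stood at 8.76 ± 2.08 in KO and 4.31 ± 3.02 in WT (SD, n = 2), and Sqstm1 at 8.53 ± 0.564 in KO and 6.33 ± 3.75 in WT. On this scale these 2 genes, with spans of 9.14 and 10.7 kb, were the highest in either group. They did not differ from each other beyond their spread. Without the division Rb1cc1, with a span of 61.7 kb, had the highest mean count over the 4 libraries, at 106 against 79.3 in Sqstm1 and 59.7 in Gabarapl1. Per kb the ULK complex scaffold Rb1cc1 followed in WT at 2.24 ± 0.595 against 1.19 ± 0.0398 in KO. Becn1, Atg13 and Atg4b lay between 0.898 and 1.77 in both groups, and their order changed with the group. Ulk1 (0.506 ± 0.00773 in KO, 0.337 ± 0.0646 in WT), Map1lc3b and Ulk2 were lowest, with Ulk2 at 0.264 ± 0.0916 in KO and 0.0782 ± 0.0884 in WT.

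**Figure D1:**
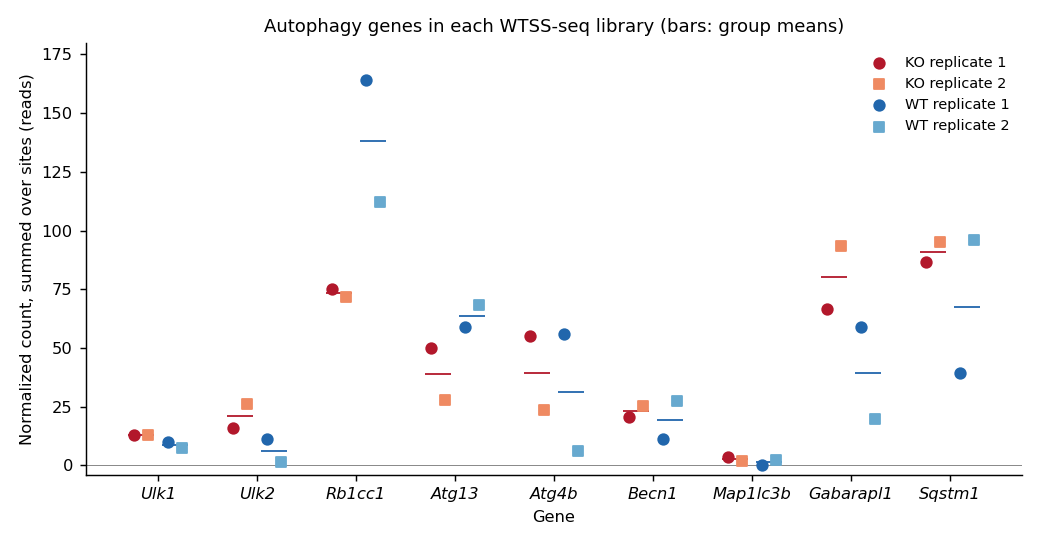
Summed normalized count of each detected gene in each library, with symbols for the 4 libraries (KO in red and orange, WT in blue) and short bars for group means. Rb1cc1 and Atg13 lie lower in both KO libraries than in both WT libraries, Ulk1, Ulk2 and Gabarapl1 lie higher, and the other 4 genes overlap, where 21.7% and 17.6% of all genes lie above and below in this way.

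As summed counts per gene, 0 of the 6 members that DESeq2 tested differed between KO and WT at an adjusted p under 0.1. No member had an unadjusted p under 0.05, and edgeR's quasi-likelihood test, which tested 8 members, also called 0, with 0 at an unadjusted p under 0.05. Over all genes 2.67% of 4688 were called. The median log2 fold change was 0.30 over the 6 tested members and 0.01 over all tested genes. The KO libraries lay above the WT libraries without overlap in 3 of the 9 detected members and below them in 2. Over all 9838 genes with a site, the shares were 21.7% above and 17.6% below, and with so few members nothing is read from these counts. The intervals were wide, and for each of the 6 tested members the 95% interval of the DESeq2 fold change held a 2-fold change in at least 1 direction.

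The kinases of the ULK complex were sparse. Coordinates are those of GRCm38, counted from 1. For Ulk1 a single site was listed, intronic and spanning 110797093 to 110797113 of chromosome 5. It drew 21 and 15 reads from the KO libraries and 7 and 6 from the WT libraries. Scaled to depth, its summed normalized count was 12.8 and 13.1 in KO against 9.82 and 7.47 in WT, so both KO libraries were higher by a small margin. The log2 fold change was 0.59 (SE 1.30, edgeR adjusted p 0.901). The sum lay under the mean count of 16.5 that the gene comparison of DESeq2 tested. In the comparison of sites its site was tested and not called (DESeq2 log2 fold change 0.71 with SE 1.43). Ulk2, the close relative of Ulk1, had 3 sites spread over the 3′ part of the gene. Its summed normalized count was 15.9 and 26.2 in KO against 11.2 and 1.25 in WT, a difference without overlap that also lay under the tested range (log2 fold change 1.77, SE 1.32, edgeR adjusted p 0.602). Without WT replicate 1 the log2 fold change was 4.08 and without WT replicate 2 it was 0.87. The strongest Ulk2 site, intronic at 61804048 to 61804054 of chromosome 11, had 14 and 15 reads in KO against 5 and 0 in WT.

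Atg13, the regulatory subunit that links the kinase to the scaffold, had a single intronic site spanning 91705193 to 91705200 of chromosome 2, in the first 15.0% of the gene. The KO libraries gave 82 and 32 reads to it and the WT libraries 42 and 55. After scaling to depth the summed normalized count was 50.1 and 28.0 in KO against 58.9 and 68.5 in WT, so both KO libraries were lower, KO replicate 1 by a small margin. The difference did not exceed the error (DESeq2 log2 fold change -0.70 with SE 0.71, 95% interval -2.10 to 0.69, adjusted p 0.912).

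Rb1cc1 gave the single DE-ASS among the members, DE-ASS meaning a site with a DESeq2 adjusted p under 0.1. The gene lies at 6214634 to 6276375 of chromosome 1 on the plus strand, and it had 9 sites, numbered here from 5′ to 3′. Site 6, intronic at 6241869 to 6241873, had 74 and 38 reads in the WT libraries and 0 reads in both KO libraries. Those are normalized counts of 100 and 43.9 in WT, a mean of 72.2 ± 40.0 (SD, n = 2). The zeros came from the deeper libraries. Set against a floor of 3 counts per library, the KO level was below the WT mean by a factor of at least 31.7 (DESeq2 adjusted p 0.000102, edgeR adjusted p 0.0401). This bound leaves out the spread of WT, and it was 44.1 with WT replicate 1 alone and 19.3 with WT replicate 2 alone. The call was not kept without KO replicate 2 (DESeq2 adjusted p 0.126), and without WT replicate 1 the site fell under the tested mean count. The T cell marker Skap1, with 3 sites, all intronic, followed the same direction with 9 and 2 reads in KO against 138 and 78 in WT (DESeq2 log2 fold change -5.26 with SE 0.81, adjusted p 5.61e-08). The macrophage and fibroblast lists given above were also lower in both KO libraries, though 1 macrophage gene was higher in KO. The blood list, and the endothelial list by normalized count, were higher in both KO libraries. No gene of these lists was called. The part of RNA from these cell types in the Rb1cc1 difference was not tested.

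This was 1 of 14 tested member sites and the only one with an unadjusted p under 0.05. Across all genes, 0.882% of the 11112 tested sites were called lower in KO and 2.33% were called higher, while 0 of the 14 member sites were called higher. Ordered by p among the 98 DE-ASSs lower in KO, Rb1cc1 site 6 was number 12. It was 1 of 30 sites in the table with no read in KO and at least 10 reads in each WT library, and 185 sites showed the opposite pattern. Both counts use raw reads, and the WT libraries were shallower, so a zero arises more easily in WT. Of all sites in the table, 11.8% were at 0 in both WT libraries and 2.29% in both KO libraries. The counts of 30 and 185 are therefore not compared. The other 21 member sites lay under the mean count that DESeq2 tested.

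**Figure D2:**
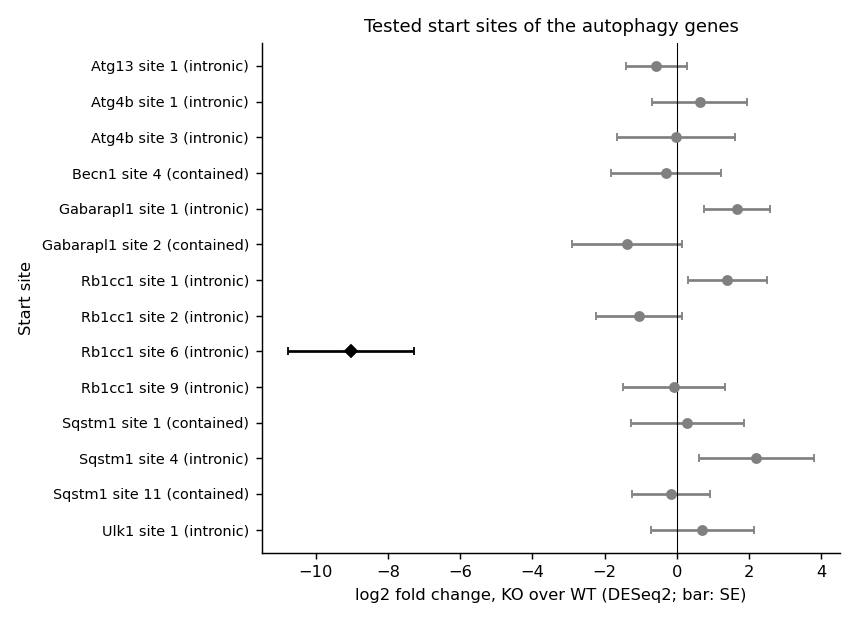
DESeq2 log2 fold change of KO over WT for the 14 tested start sites of the autophagy genes, with bars for the SE and the DE-ASS as a black diamond. Rb1cc1 site 6 lies far to the left, at a fitted value set by 0 reads in KO and so no measure of size, and for each of the other sites the change was not called.

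The other 8 sites of Rb1cc1, taken as a sum, did not follow site 6. The sum was 75.1 and 71.7 normalized counts in KO and 60.3 and 64.8 in WT, that is 73.4 ± 2.46 against 62.5 ± 3.16 (SD, n = 2), a log2 ratio of 0.23. This sum was formed after the values were seen and has no test. With site 6 included the gene stood at 75.1 and 71.7 in KO against 164 and 112 in WT, a log2 fold change of -0.91 (SE 0.56, 95% interval -2.01 to 0.19, DESeq2 adjusted p 0.688). Site 1, intronic at 6223458 to 6223461 and the nearest to the start of the gene at 8826 bp, pointed the other way. It had 53 and 32 reads in KO against 8 and 11 in WT, and a change was not called (DESeq2 log2 fold change 1.40 with SE 1.10, adjusted p 0.923). Site 2, intronic at 6226733 to 6226735, was lower in both KO libraries like site 6, at normalized counts of 11.8 and 10.4 in KO against 20.4 and 25.4 in WT, and was not called (DESeq2 log2 fold change -1.05 with SE 1.18, adjusted p 1.00). Site 5, intronic and next to site 6 at 6241685 to 6241687, had 3 and 0 reads in KO against 3 and 7 in WT. Sites 4 and 8, also intronic, had no read in WT but only 11 and 6 reads and 8 and 9 reads in KO. Site 9 lay on the strand opposite to the gene, and its reads cannot be given to Rb1cc1 with certainty. They are part of the sums above, with 16 and 13 reads in KO against 11 and 7 in WT.

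The use of start sites within Rb1cc1 differed between KO and WT. Site 6 took 63.2% and 42.2% of the gene's reads in WT and none in KO, while the share of site 1 was 43.1% and 39.0% in KO against 6.84% and 12.2% in WT. Without reads at site 6 the other sites take larger shares in KO even at unchanged counts. The 4 sites that passed the count filter were sites 1, 2, 6 and 9. Tested with diffSpliceDGE (Simes method), they gave an adjusted p of 0.00697 for the gene. Site 9, on the opposite strand, is thus part of the test, and its reads also count in the shares above. Among all genes 1.77% of the 2145 tested were called. Of the other members, Sqstm1 (adjusted p 0.678) and Atg4b (adjusted p 1.00) could be tested and were not called. The difference in Rb1cc1 rests on site 6 (adjusted p for the site 0.00480), since the same test of site 1 gave 0.298. The call of the gene was lost without KO replicate 1 (0.342), KO replicate 2 (0.173) or WT replicate 1 (0.141) in turn, and was kept without WT replicate 2 (0.0163).

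**Figure D3:**
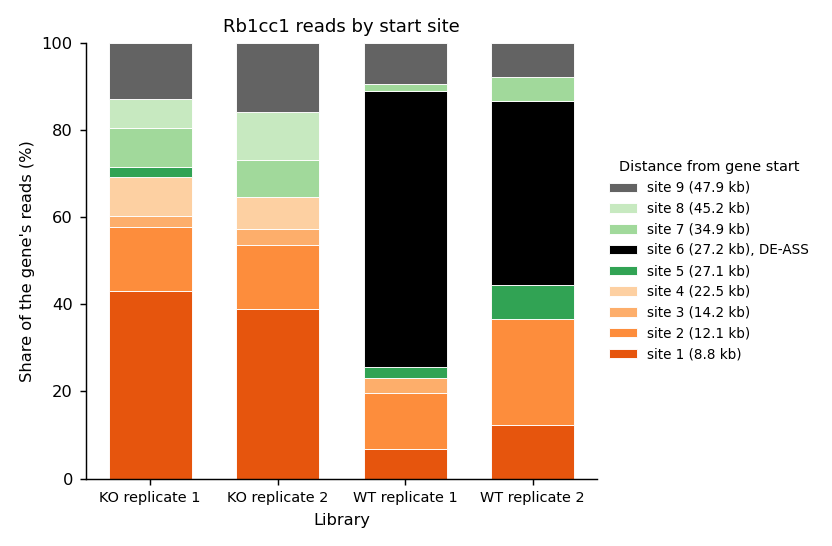
Share of the reads of Rb1cc1 at each of its 9 start sites, as stacked bars that sum to 100% for each library, with the distance of each site from the start of the gene in the key. The black block (site 6) makes up 63.2% and 42.2% in WT and is missing in KO, where site 1 at the bottom is the largest block.

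Becn1, whose protein nucleates the autophagosome membrane within the lipid kinase complex, had 4 sites at 39.1% to 98.7% of the length of the gene on chromosome 11. The summed normalized count was 20.8 and 25.3 in KO against 11.2 and 27.4 in WT, with the KO libraries inside the range of the WT libraries. The log2 fold change was 0.25 (SE 1.00, DESeq2 adjusted p 0.992). Its strongest site, contained in the transcript at 101288412 to 101288449 near the 3′ end, had 15 and 8 reads in KO against 5 and 12 in WT. Site 3 of the gene, at 101289881 to 101289890, had 7 and 11 reads in KO and none in WT, and was too low to be tested. Sites with 0 reads in both WT libraries made up 11.4% of the member sites and 11.8% of all sites, so such zeros were no more frequent here than in the table at large.

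Atg4b, the protease that primes and recycles ATG8 proteins, had 3 intronic sites on chromosome 1 and a wide spread between replicates. Its summed normalized count was 55.0 and 23.6 in KO against 56.1 and 6.23 in WT. The groups overlapped, and the 2 WT libraries differed from each other more than the groups did. The strongest site, at 93784241 to 93784243, had 44 and 5 reads in KO against 25 and 0 in WT, so replicate 1 of either group carried it. The log2 fold change of the gene was 0.34 (SE 1.00, DESeq2 adjusted p 0.992).

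Among the ATG8 proteins, Gabarapl1 had the most reads and the largest fold change of the tested member genes in the upward direction. Its main site, intronic at 129534523 to 129534526 of chromosome 6 and 1333 bp from the start of the gene, had 101 and 101 reads in KO against 28 and 9 in WT. Scaled to depth this was 66.3 and 87.2 in KO against 38.0 and 10.4 in WT. Both KO libraries were higher, with a log2 fold change of 1.67 (SE 0.91, 95% interval -0.11 to 3.45) that was not called (DESeq2 adjusted p 0.596, edgeR adjusted p 0.527). The second site, contained in the transcript near the 3′ end, pointed the other way, with 8 and 6 reads in KO against 14 and 7 in WT (log2 fold change -1.37, SE 1.53). As a sum the gene stood at 66.6 and 93.5 in KO against 58.9 and 19.9 in WT (DESeq2 log2 fold change 1.03 with SE 0.74, adjusted p 0.787). Without WT replicate 1 that log2 fold change was 2.00 and without WT replicate 2 it was 0.41. Map1lc3b, which encodes the LC3B used as a marker of autophagosomes, had 1 contained site at 121597681 to 121597682 of chromosome 8. It drew 6 and 2 reads in KO against 0 and 2 in WT, which was at the limit of detection, and a difference was not detectable at this depth. How reads that match several members of this gene family were counted was not given in the sources used here.

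Sqstm1, the cargo receptor p62, had the most sites, 11 over the gene at 50200152 to 50210820 of chromosome 11. The summed normalized count was 86.7 and 95.2 in KO against 39.3 and 95.9 in WT. WT replicate 1 was the low library, and WT replicate 2 exceeded both KO libraries (DESeq2 log2 fold change 0.43 with SE 0.66, adjusted p 0.954). The site at the promoter had 9 and 16 reads in KO against 5 and 8 in WT, normalized counts of 5.91 and 13.8 against 6.79 and 9.24 that overlapped (DESeq2 log2 fold change 0.29 with SE 1.56, adjusted p 1.00). Its strongest site lay at the far end, contained in the transcript at 50200303 to 50200395, with 27 and 31 reads in KO against 10 and 31 in WT. The intronic site 2, at 50209173 to 50209183, had 30 and 12 reads in KO against 2 and 0 in WT, higher in both KO libraries but without a DESeq2 adjusted p and with an edgeR adjusted p of 0.430. The promoter site took 6.34% and 14.7% of the gene's reads in KO and 17.9% and 10.4% in WT.

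**Figure D4:**
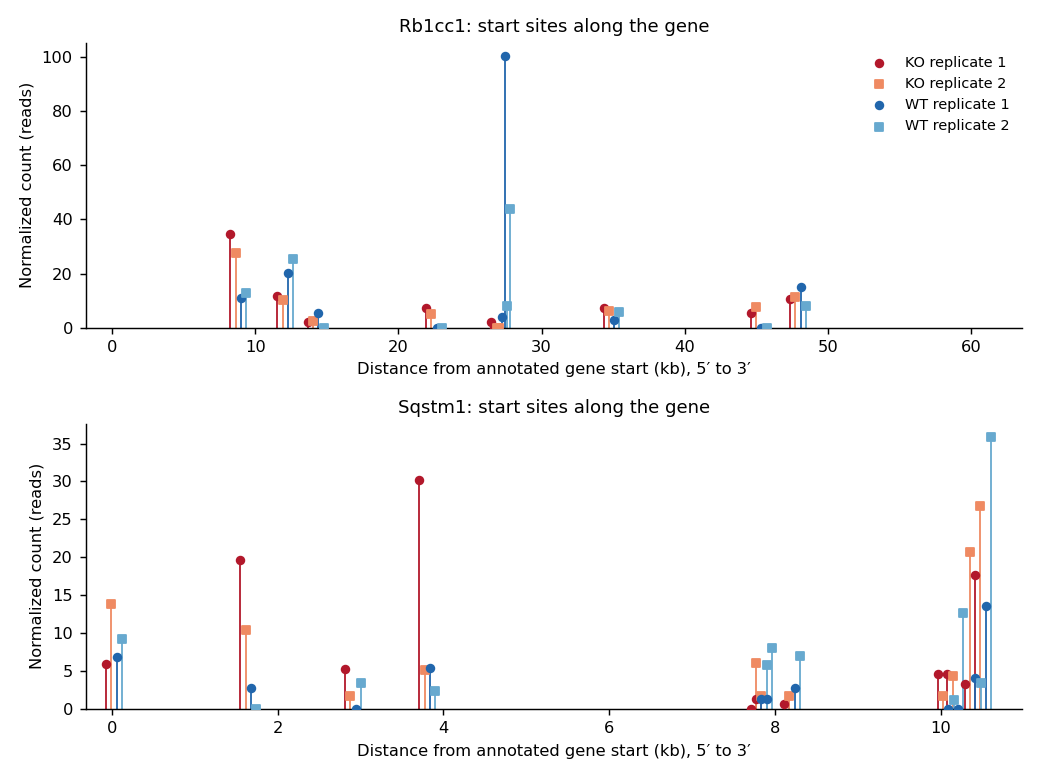
Normalized count of each start site of Rb1cc1 (top) and Sqstm1 (bottom) against its distance from the annotated start of the gene in kb, with the 4 libraries drawn side by side at each site. Rb1cc1 has a tall pair of WT lines at 27.2 kb with no KO counterpart and no site before 8.83 kb, while Sqstm1 has a site at its start, its tallest line at the far end in WT replicate 2 (35.8) and the next at 3.81 kb in KO replicate 1 (30.2).

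The other steps of autophagy were read from a list of 83 genes sorted by role, of which 68 had sites, 43 were tested as sums and 1 was called. Outside the 10 members this was 1 of 37 tested genes, where 2.67% of all 4688 tested genes were called. There were 20 fold changes above 0 and 17 below. The median log2 fold change was 0.27, against 0.01 over all tested genes. With so few genes nothing is read from these values. The called gene was Rab7, the small GTPase of late endosomes that takes part in fusion with the lysosome. Its summed normalized count was 2344 and 1537 in KO against 667 and 648 in WT, higher in both KO libraries (DESeq2 log2 fold change 1.56 with SE 0.42, adjusted p 0.0159). With edgeR the adjusted p was 0.203, and the call was also lost without KO replicate 1 (0.731), WT replicate 1 (0.143) or WT replicate 2 (0.225).

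By role, none of the 2 tested ULK complex genes, 5 lipid kinase complex genes, 4 genes of ATG9 and lipid transfer, 6 conjugation genes, 1 ATG8 gene, 10 cargo receptors, 7 lysosomal genes and 5 nutrient signalling genes was called by DESeq2, against 1 of 3 fusion genes. Over all tested genes 2.67% were called, and with so few genes per role nothing is read from these counts. For the other roles the gene with the highest mean of the summed normalized count over the 4 libraries is given, an order that need not hold within KO or WT alone. Uvrag, a partner of Beclin 1, stood at 84.7 ± 55.5 in KO and 124 ± 27.2 in WT (SD, n = 2; DESeq2 adjusted p 0.931). Wdr45, which binds the growing membrane, stood at 190 ± 112 and 134 ± 43.9 (adjusted p 0.931), and Atg3, the conjugating enzyme for ATG8 proteins, at 93.5 ± 37.1 and 76.9 ± 53.3 (adjusted p 0.988). Tax1bp1, a cargo receptor like p62, stood at 150 ± 50.4 in KO and 223 ± 12.1 in WT (adjusted p 0.896). Deptor, an inhibitor of mTOR, stood at 196 ± 42.6 and 175 ± 87.0 (adjusted p 0.992). Atp6v1a, a subunit of the proton pump of lysosomes, had the highest such mean of the lysosomal genes, at 112 and 2220 in KO against 175 and 76.0 in WT, so its mean was set by KO replicate 2 (adjusted p 0.531).

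Single sites were called higher in KO in 3 of these other genes, out of 73 tested sites (4.11%) and with 0 called lower, against 2.33% and 0.882% of all tested sites. With so few sites nothing is read from this share. Atg10, which conjugates ATG12 to ATG5, had an intronic site on chromosome 13 (91108620 to 91108639) with 97 and 66 reads in KO against 3 and 5 in WT. Both KO libraries were far above both WT libraries there (DESeq2 log2 fold change 3.61 with SE 1.05, adjusted p 0.0361, edgeR adjusted p 0.124), and leaving out any 1 library raised the DESeq2 adjusted p to between 0.158 and 1.00. The Rab7 site at 87999463 to 87999786 of chromosome 6 carried the rise of its gene, with 3659 and 1639 reads against 368 and 438 (log2 fold change 1.92, DESeq2 adjusted p 0.0381, edgeR adjusted p 0.179, and 0.125 to 1.00 with any 1 library left out). The Atp6v1a site at 44085808 to 44085842 of chromosome 16 had 157 and 2520 reads in KO against 108 and 48 in WT (log2 fold change 3.50, DESeq2 adjusted p 0.0192, edgeR adjusted p 0.270). Without KO replicate 2 its log2 fold change was 0.02. For start site usage, 21 genes of the list could be tested, and Rb1cc1 was the only one called. Among all 2145 genes tested for usage, 1.77% were called.

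**Figure D5:**
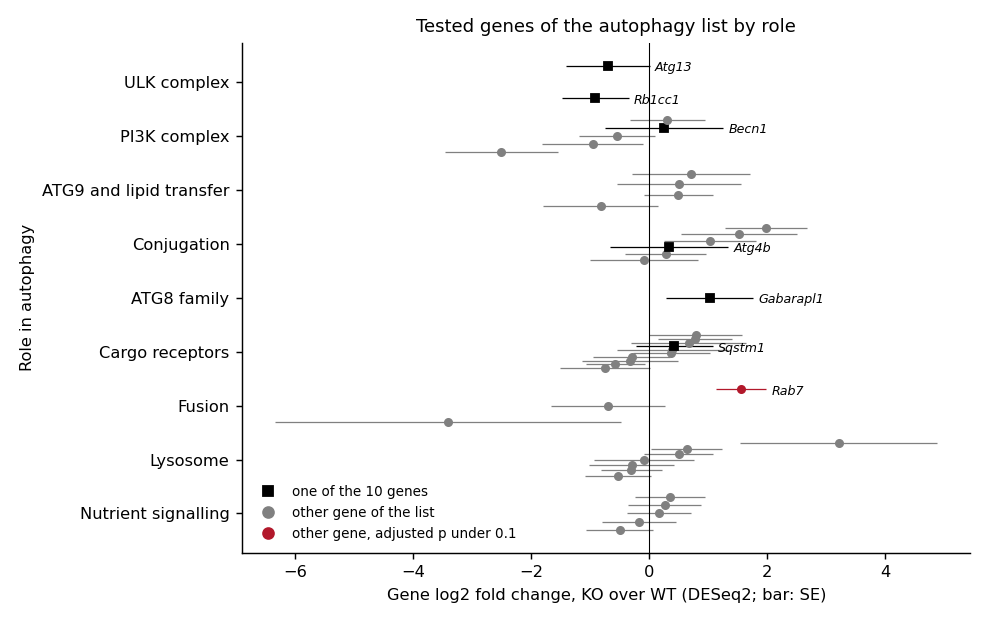
DESeq2 log2 fold change of KO over WT for the 43 tested genes of the autophagy list, grouped by role, with bars for the SE, black squares for members and grey circles for other genes. Rab7 (red, at 1.56) is the only gene past an adjusted p of 0.1, which 2.67% of all tested genes reached. Of the 43 fold changes, 24 lie above 0 and 19 below.

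Genes with the most similar pattern were sought for the 3 members with the highest mean of the summed normalized count. They were found by the root mean square difference of log2 (normalized count + 0.5) over the 4 libraries, as a description with no test. For Rb1cc1 they were Med15 (0.13), Zfp141 (0.16) and 5430416N02Rik (0.20). For Sqstm1 they were Myo18b (0.14), Sucla2 (0.18) and Crybg3 (0.19), all low in WT replicate 1, and for Gabarapl1 Med14 (0.23), Polr2c (0.28) and Acaca (0.28), all low in WT replicate 2.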

How the data were processed

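WTSS-seq libraries of KO and WT muscle (n = 2 each) were taken as GEO's labels give them. The authors deposited 1 table of raw read counts per clustered start site, with a symbol and a Cuffcompare class code, on GRCm38.p5 per the labels. The aligner settings and clustering are described for the sister 3′ libraries and are not given for the 5′ libraries in the sources used here. Sites, and counts summed over the sites of a symbol, were compared with the DESeq2 Wald test (version 1.42.0, R 4.3.3, median-of-ratios scaling, independent filtering at a mean of 8.76 for sites and 16.5 for genes, Benjamini-Hochberg adjusted p under 0.1), fitted on the whole table. As a second test edgeR (version 4.0.16, quasi-likelihood) was run, and start site usage was tested with diffSpliceDGE in genes with 2 or more sites that passed filterByExpr. Scripts were tested on simulated data. Each library was taken as 1 animal, per the series design. RefSeq tables of GRCm38.p6 gave gene positions, for 9262 of the 9838 symbols and for all 10 members, and 7 member promoters. Sites were named by a rule: each member's strongest site, each DE-ASS and each site at 0 in 1 group whose counts in both libraries of the other were 10 or more. Other sites were picked after their values were seen. Other autophagy genes were named when they or a site were called, or when highest in their role. The members, lists and rules were chosen with earlier results of these data known. Alternatives covered scaling, filters, threshold, the replicate block, single libraries left out and sums without intronic sites.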

Additional observations from a re-analysis of the deposited data

How the results depend on the processing

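Alternatives were run on the calls, on the fold changes of the detected members and Rab7, and on the called sites of the autophagy list, and not on the other named genes. The count of 1 called member site was kept with edgeR, both other scalings, both other filters and an adjusted p under 0.05. No label says that the replicate number pairs animals. The log2 difference of replicate 1 from replicate 2 in KO correlated with that in WT at 0.0654 over 11112 sites. With the replicate number as a block the count of called member sites was 0, and the DESeq2 adjusted p of Rb1cc1 site 6 was 0.488. With 1 library left out, the count ran from 0 to 1, and so did the count of members called for start site usage. The group left with 1 library was assumed to vary like the other. The member genes called stayed at 0 under every alternative. Start site usage of Rb1cc1 stayed called with the block (adjusted p 0.0618), the gene-level F test (0.00326) and a minimum of 10 reads (0.0134). Without intronic and antisense sites the log2 fold change turned to 0.80 in Rb1cc1 and -1.31 in Gabarapl1. With 1 library left out, it ran from -0.54 to 2.66 in Atg4b, -0.25 to 1.01 in Becn1 and -0.076 to 1.18 in Sqstm1, and without a turn from 0.41 to 2.00 in Gabarapl1, 0.87 to 4.08 in Ulk2, 0.13 to 3.37 in Map1lc3b and -1.18 to -0.34 in Atg13, none of them called. Over the whole table, edgeR called 48 sites higher and 32 lower in KO, against 259 and 98 with DESeq2, and 33 genes higher and 21 lower, against 80 and 45. The block left 145 sites higher and 50 lower, and 12 genes in place of 38 for usage. A threshold of 0.05 left 157 and 65 sites, no independent filtering 123 and 52, and scaling to nuclear reads 170 higher. Sums without intronic sites called 44 genes higher and 20 lower. With 1 library left out, 28 to 227 sites were higher and 16 to 84 lower, 34 to 64 genes higher and 9 to 36 lower, and 5 to 26 genes were called for usage. For usage the F test called 71 genes and the minimum of 10 reads 21. Depth limits Ulk1, Ulk2 and Map1lc3b, whose sums lay under the tested mean, and Map1lc3a, which had no listed site.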
